A study of Homo sapiens with 8 samples.

Results

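The 4 human tropomyosin genes, TPM1, TPM2, TPM3 and TPM4, were followed after the depletion of CHERP, a nuclear protein associated with the spliceosome. The cells were U2OS, a line from a human osteosarcoma. They received 20 nM of an siRNA against EGFP as the control or 20 nM of CHERP #2 siRNA, and RNA was taken at 48 h. RNA came from whole cells or from the cytoplasm, which was the supernatant of cells lysed with a mild detergent. Each siRNA and fraction had 2 libraries from biological duplicates, 8 in all. The knockdown rests on 1 siRNA sequence in 1 cell line, and no untransfected cells were among the libraries. Members were all splicing events of the 10 rMATS tables whose gene symbol was TPM1, TPM2, TPM3 or TPM4. They came to 35 of 89379 events in whole cells and 38 of 43559 in the cytoplasm, together 73 of 132938.

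Tropomyosins are coiled-coil proteins that dimerize and polymerize head to tail along the groove of the actin filament, where they govern access of myosin and of filament-severing proteins. Each gene makes several isoforms by alternative promoters, alternative last exons and mutually exclusive internal exons, of which a transcript carries one or the other. The alternative exons named 6a and 6b encode an internal stretch of the coiled coil. In TPM2, exon 6b is known from skeletal muscle and exon 6a from smooth muscle and non-muscle cells.

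The events called below, all of TPM2, turn on exons 6a and 6b, although many other tropomyosin events do not. Exons 6a and 6b of TPM1, TPM2 and TPM3 are therefore shown first. They were read from GRCh37, the assembly also called hg19, and are given 5′ to 3′ on the transcript strand. Capitals mark the exon, and lower case marks 20 bases of the intron before it and 10 bases of the intron after it.
TPM2 exon 6a, chr9:35685051-35685156, minus strand: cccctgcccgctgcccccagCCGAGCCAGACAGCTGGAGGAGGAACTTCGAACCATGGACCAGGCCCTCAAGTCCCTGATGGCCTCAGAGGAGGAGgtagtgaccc
TPM2 exon 6b, chr9:35684719-35684824, minus strand: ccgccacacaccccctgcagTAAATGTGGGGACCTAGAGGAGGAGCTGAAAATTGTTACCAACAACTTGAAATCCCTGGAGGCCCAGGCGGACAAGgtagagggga
TPM1 exon 6a, chr15:63353377-63353482, plus strand: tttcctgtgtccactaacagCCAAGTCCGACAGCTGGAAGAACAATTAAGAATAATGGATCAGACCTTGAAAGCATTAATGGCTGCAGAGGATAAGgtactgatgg
TPM1 exon 6b, chr15:63353892-63353997, plus strand: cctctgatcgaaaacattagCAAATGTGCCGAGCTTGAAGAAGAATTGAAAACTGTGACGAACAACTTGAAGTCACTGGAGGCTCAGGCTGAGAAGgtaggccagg
TPM3 exon 6a, chr1:154144495-154144600, minus strand: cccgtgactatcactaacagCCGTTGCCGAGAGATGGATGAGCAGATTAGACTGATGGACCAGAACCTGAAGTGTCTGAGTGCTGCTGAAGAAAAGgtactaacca
TPM3 exon 6b, chr1:154143879-154143984, minus strand: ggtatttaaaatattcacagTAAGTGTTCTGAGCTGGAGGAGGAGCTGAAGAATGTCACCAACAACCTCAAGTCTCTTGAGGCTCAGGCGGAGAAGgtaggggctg
All 6 exons were 76 nt long and coding in GENCODE 44 lifted to this assembly. Exon 6a of TPM2 lies at chr9:35685061-35685136 and exon 6b at chr9:35684729-35684804, downstream of it on the minus strand. Of the 10 annotated TPM2 transcripts, 2 held exon 6a and 4 held exon 6b, and 0 held both. Annotated transcripts with both exons exist for the other pairs, 4 for TPM1 exons 6a and 6b and 1 for those of TPM3. Position by position, the DNA of TPM2 exons 6a and 6b was identical at 40 of 76 bases, or 52.6%. Across genes the same exon was closer, since exon 6b of TPM2 was 77.6% identical to that of TPM1 and 78.9% to that of TPM3. For exon 6a the identities of TPM2 to TPM1 and TPM3 were 68.4% and 64.5%.

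The 3′ splice sites of the mutually exclusive exons had low scores, and their 5′ splice sites lay on both sides of the median. Scores were log odds against even base use, from the base frequencies at the sites of 52810 distinct SE exons in the tables, so that a low percentile is a poor match to the usual site. The 3′ splice site score was at percentile 3.85 for TPM2 exon 6a and 2.56 for exon 6b. It was at 22.2 and 0.638 for TPM1 exons 6a and 6b, and at 3.27 and 6.51 for TPM3 exons 6a and 6b. TPM1 also has exons 2a and 2b of 126 nt, at chr15:63335905-63336030 and chr15:63336226-63336351, and their 3′ splice sites were at percentiles 2.44 and 3.58. At the 5′ splice site the first exon of each pair was the lower one, at percentile 11.0 for TPM2 exon 6a and 21.9 for exon 6b. The second exons of the other pairs were above the median, at 57.4 for TPM1 exon 2b, 56.7 for TPM1 exon 6b and 63.3 for TPM3 exon 6b. Low 3′ splice site scores were not particular to these pairs. Among other exons of the genes, the 63-nt exon of TPM2 was at percentile 2.09 and the 70-nt exon of TPM1 at 7.53. The 63-nt exons of TPM3 and TPM4 were above the median, at 57.3 and 66.4.

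**Figure D1:**
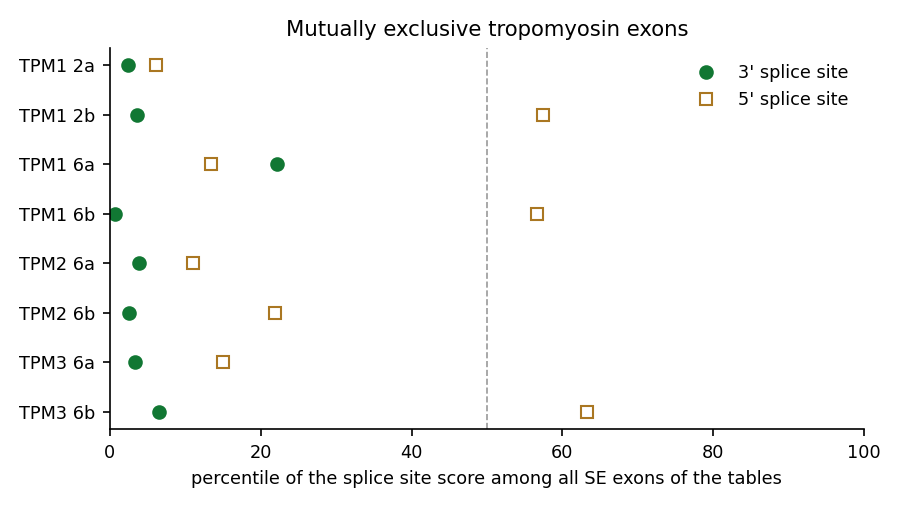
Percentile of the splice site score of 8 mutually exclusive exons of TPM1, TPM2 and TPM3 among the SE exons of the tables (x axis, 0 to 100). Filled circles are 3′ splice sites, open squares are 5′ splice sites, and the dashed line is the median; the 3′ splice sites lie between percentiles 0.638 and 22.2.

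CTCTCT, a motif bound by polypyrimidine tract proteins, and TGCATG, the motif of RBFOX proteins, were searched on the transcript strand in up to 150 intron bases on each side. CTCTCT was found 3 times before TPM3 exon 6b and 2 times before TPM1 exon 2b, and 8.88% of such windows before SE exons held it. It was also found 2 times after TPM1 exon 2a, against 6.03% of the windows after SE exons. The window after exon 2a and the window before exon 2b overlap in the intron between them, so these can be the same motifs. Matches that overlap each other were counted separately. TGCATG was found before TPM1 exon 6a, against 4.23% of the windows. Beside TPM2 exons 6a and 6b neither motif was in these windows.

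Across all event types, 2 of the 35 whole-cell tropomyosin events and 1 of the 38 cytoplasmic events were called at an adjusted p under 0.05. Over all events tested, 1.12% were called in whole cells and 0.416% in the cytoplasm. The called events were the exon 6a and 6b pair of TPM2 in both fractions and an intron of TPM2 that spans exon 6b in whole cells. The share of an event is its inclusion level, the length-corrected share of reads on the inclusion form. For mutually exclusive exons the inclusion form was the one with the exon that comes first in the transcript.

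CHERP depletion shifted TPM2 from exon 6a to exon 6b. In whole cells the exon 6a form had 692 and 732 reads in the EGFP siRNA libraries and 554 and 509 reads in the CHERP siRNA libraries. The exon 6b form had 508 and 634 reads in the controls and 666 and 695 after CHERP depletion. Exon 6a was thus the more frequent choice in both control libraries and exon 6b in both CHERP-depleted libraries. The inclusion level of exon 6a was 0.577 and 0.536 with EGFP siRNA, against 0.454 and 0.423 with CHERP siRNA, and the groups did not overlap. Its mean fell from 0.556 ± 0.029 to 0.438 ± 0.022 (SD, n = 2), with an adjusted p of 3.75e-05 by the quasi-binomial test. In this event type 1 of 6 tropomyosin events was called, and 1.6% of all whole-cell MXE events were. The call was lost with limma on the log2 odds (adjusted p of 0.501) and without the second CHERP siRNA library, at an adjusted p of 0.137 and a difference of -0.102.

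The cytoplasm had the same direction. The exon 6a form had 715 and 748 reads in the controls, against 654 and 456 after CHERP depletion. For the exon 6b form the numbers were 647 and 799, against 915 and 769. The inclusion level of exon 6a was 0.525 and 0.484 with EGFP siRNA, against 0.417 and 0.372 with CHERP siRNA, again without overlap. Its mean fell from 0.504 ± 0.029 to 0.395 ± 0.032 (SD, n = 2; adjusted p of 0.000672). In the cytoplasm 1 of 7 tropomyosin MXE events was called, and 0.863% of all MXE events were. The call was lost when the event's own spread replaced the trended one, at an adjusted p of 0.0940, with limma on the log2 odds (0.601), and without any 1 of the 4 libraries, at adjusted p between 0.542 and 0.856, where at most 1 MXE event of the whole table was called.

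**Figure D2:**
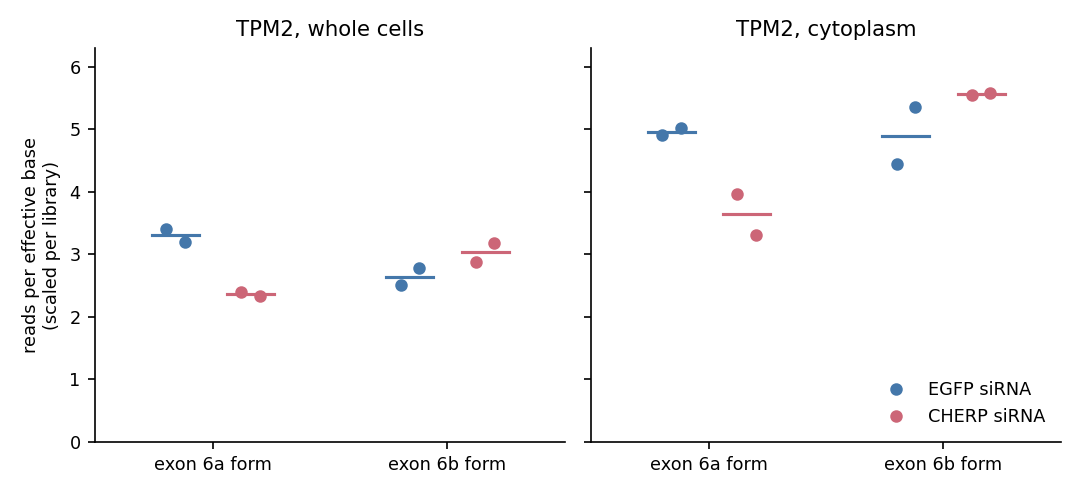
Reads per effective base, scaled between libraries, on the TPM2 form with exon 6a and the form with exon 6b (y axis, from 0), in whole cells (left) and the cytoplasm (right). Points are libraries and bars are means of 2; the exon 6a form is lower in both CHERP siRNA libraries of each fraction, and the exon 6b form is higher.

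Divided by effective length and scaled between libraries, the exon 6a form of whole cells stood at 3.41 and 3.20 reads per base with EGFP siRNA, against 2.40 and 2.33 with CHERP siRNA. The exon 6b form stood at 2.504 and 2.77 with EGFP siRNA, against 2.88 and 3.18 with CHERP siRNA. In the cytoplasm the exon 6a form went from 4.91 and 5.02 to 3.97 and 3.31, and the exon 6b form from 4.44 and 5.36 to 5.56 and 5.58. Each form was apart between the groups in each fraction, and the distance was narrower for exon 6b. The mean difference in exon 6a inclusion was -0.118 in whole cells and -0.110 in the cytoplasm. The interaction of siRNA and fraction was not called (unadjusted p of 0.757, adjusted p of 0.993), which does not show that the fractions were equal.

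The intron event of TPM2 spans the 513 nt between exon 6a and the next exon shared by both forms, chr9:35684548-35685060. Exon 6b lies inside it, so reads of exon 6b and reads of an unspliced intron cannot be told apart in its inclusion form. In whole cells it had 146 and 124 inclusion reads in the controls, against 154 and 174 after CHERP depletion. The skipping form, which joins exon 6a to the next exon, had 454 and 487 reads, against 357 and 308. The level rose from 0.066 and 0.053 to 0.086 and 0.110 without overlap, with an adjusted p of 0.0300. Of 2 tropomyosin RI events 1 was called, and 3.26% of all whole-cell RI events were. The call shares its exon junction with the mutually exclusive pair, so it is not a second line of evidence. It was lost without the second EGFP siRNA library (adjusted p of 0.312), without the first CHERP siRNA library (0.0872) and without the second (0.677). It was also lost with the event's own spread (0.0909), with adjustment over the 5 types (0.0630), with the dispersion from events of 10 reads or more on the rarer form (0.0555) and with limma on the log2 odds (0.694).

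TPM1 and TPM3 have a pair of exons 6a and 6b as well, and their levels were far from those of TPM2. TPM3 used exon 6a nearly alone. Its exon 6a form had 1979 and 2664 reads in the whole-cell controls and 1108 and 1019 after CHERP depletion, against 9, 4, 2 and 1 reads of exon 6b, in the same order of libraries. The inclusion level was between 0.995 and 0.999 in the 4 whole-cell libraries. In the cytoplasm the exon 6b form had 4 and 2 reads with EGFP siRNA, against 0 and 0 with CHERP siRNA, beside 500 to 1214 reads of exon 6a (adjusted p of 0.711).

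TPM1 also favoured exon 6a. In whole cells the level of exon 6a, chr15:63353397-63353472, was 0.917 and 0.942 with EGFP siRNA, against 0.931 and 0.924 with CHERP siRNA, with overlapping groups and an adjusted p of 0.966. In the cytoplasm it was 0.953 and 0.956 with EGFP siRNA, against 0.921 and 0.943 with CHERP siRNA. These did not overlap, but the difference of -0.022 was not called (adjusted p of 0.711). For the first pair of TPM1, exon 2a, which is known from smooth muscle, was at 0.017, 0, 0 and 0.014 in the whole-cell libraries in the order EGFP, EGFP, CHERP, CHERP siRNA. Exon 2b, the general form, took nearly all reads, with 350, 354, 337 and 284 in the same order. In the cytoplasm exon 2a was at 0.005, 0.014, 0.010 and 0.005.

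**Figure D3:**
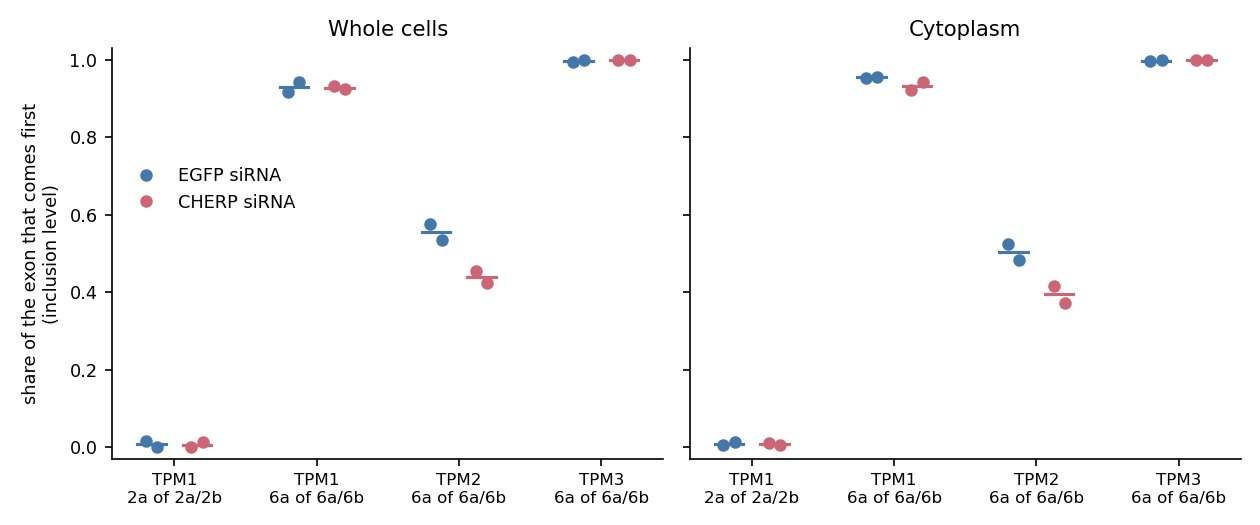
Inclusion level (y axis, 0 to 1) of the exon that comes first in 4 pairs of mutually exclusive exons, in whole cells (left) and the cytoplasm (right). Points are libraries and bars are means of 2; only TPM2 sits near the middle, and there the CHERP siRNA libraries lie below the EGFP siRNA libraries in both fractions.

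The intron of TPM1 that spans its exon 6b had the same direction as that of TPM2. Its level in whole cells was 0.022 and 0.015 with EGFP siRNA, against 0.028 and 0.030 with CHERP siRNA, without overlap and not called (adjusted p of 0.165). In the cytoplasm it had 1 and 4 inclusion reads with EGFP siRNA, against 8 and 6 with CHERP siRNA (adjusted p of 0.542), where 2.12% of all RI events were called.

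Further MXE events paired exons that most annotated transcripts with the rarer exon carry together. TPM2 had 2 of these in whole cells, with both exons in 4 of 4 and 5 of 5 such transcripts, and 1 in the cytoplasm. TPM3 had 2 in the cytoplasm, with both exons in 8 of 9 and 7 of 9. By the same count TPM1 exons 6a and 6b were together in 4 of 13 transcripts with exon 6a, and exons 2a and 2b in 1 of 4 with exon 2a. The pair of TPM2 exon 6b and the 63-nt exon after it, held together by 4 transcripts, had a level of exon 6b of 0.448 and 0.439 with EGFP siRNA, against 0.456 and 0.578 with CHERP siRNA in whole cells. It was not called there (adjusted p of 0.484) or in the cytoplasm (0.336), where the levels were 0.479 and 0.547 against 0.583 and 0.586.

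Skipped exons of the tropomyosin genes were mostly included. In whole cells 16 of 23 SE events, and in the cytoplasm 14 of 25, had an inclusion level of at least 0.95 in every library. An SE event sets an exon against direct joining of its neighbours. For TPM2 exons 6a and 6b the alternative exon is not one of these neighbours, so reads with it are not counted as skipping. TPM2 exons 6a and 6b thus each stood near full inclusion in their own SE events, at 0.989, 0.998, 0.995 and 0.994 for exon 6a in whole cells. For TPM1 exons 6a and 6b the alternative exon is a neighbour and its reads count as skipping, so those SE levels carry the exon choice. No SE event was called by the quasi-binomial test, against 0.893% of all SE events in whole cells and 0.257% in the cytoplasm. At an unadjusted p under 0.05 the counts were 0 and 3, and limma on the log2 odds called 0 in each, with 0 and 3 at that unadjusted p.

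The SE events with the most reads were as follows. In TPM2 of whole cells, the 134-nt exon chr9:35685644-35685777 had levels between 0.996 and 1 in 1296 to 1668 inclusion reads. In TPM4, the gene without a mutually exclusive pair in the tables, the 63-nt exon chr19:16204346-16204408 had at most 1 skipping read in a whole-cell library. Its inclusion reads were 861 and 1064 in the controls and 1481 and 1444 after CHERP depletion. In TPM1 the 70-nt exon chr15:63354775-63354844 had 0, 0, 1 and 0 skipping reads beside 625 to 777 inclusion reads. The most covered SE events of the cytoplasm were likewise near full inclusion, with 0 to 3 skipping reads per library, among them TPM2 exon 6b, TPM3 exon 6a, the 63-nt exon chr15:63354414-63354476 of TPM1 and the 134-nt exon chr19:16192723-16192856 of TPM4.

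TPM3 had the SE event with the most reads of all, the 134-nt exon chr1:154148591-154148724. In whole cells its level was 0.989 and 0.979 with EGFP siRNA, against 0.978 and 0.983 with CHERP siRNA, and the groups overlapped. In the cytoplasm the level was 0.985 and 0.996 with EGFP siRNA, against 0.938 and 0.956 with CHERP siRNA, with 4 and 1 skipping reads against 9 and 5. The groups did not overlap in the cytoplasm, but the event was not called (unadjusted p of 0.00497, adjusted p of 0.536). Of the 22 tropomyosin events shared by both fractions it had the lowest unadjusted p of the interaction between siRNA and fraction, 0.0190 (adjusted p of 0.941). The quasi-binomial test called 0 of these 22 interactions, 2 were at an unadjusted p under 0.05, and 0.0327% of all 33608 shared events were called.

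A 79-nt exon near the 3′ end of TPM3, chr1:154141781-154141859, was rarely included. In the cytoplasm its level was 0.030 and 0.027 with EGFP siRNA, against 0.009 and 0.011 with CHERP siRNA, from 38 and 36 inclusion reads against 5 and 5. The adjusted p was 0.625. In whole cells it was 0.034 and 0.024 against 0.020 and 0.024, with an adjusted p of 0.783. The exon in the same place in TPM1, chr15:63356263-63356389 in its 127-nt form, had a level of 0.295 and 0.524 with EGFP siRNA, against 0.661 and 0.529 with CHERP siRNA in whole cells. That is the largest difference of TPM1 without overlap among events averaging 20 reads or more. It rests on 11 to 33 inclusion reads and 9 to 14 skipping reads (adjusted p of 0.783). The 79-nt form of that TPM1 exon, chr15:63356263-63356341, has the same skipping reads. Its level was 0.515 and 0.555 with EGFP siRNA, against 0.651 and 0.564 with CHERP siRNA. The difference was smaller, at 0.073 (adjusted p of 0.794 by the quasi-binomial test).

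Over the 34 whole-cell tropomyosin events with a level in every library, the levels of the groups did not overlap in 9, and over all such events the share was 28.5%. In the cytoplasm they did not overlap in 14 of 38, against 26.1% of all events. Of the events averaging 20 reads or more, 4 in whole cells and 2 in the cytoplasm differed by more than 0.05. The A5SS and A3SS events of TPM1, TPM2 and TPM3 were not called by the quasi-binomial test in either fraction, with adjusted p of 0.818 or above and 0 at an unadjusted p under 0.05. Over all events, 1.16% of A5SS and 1.14% of A3SS events were called in whole cells, and 0.617% and 0.372% in the cytoplasm.

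Gene abundance was then compared, as the reads per effective base summed over the SE, A5SS and A3SS events of a gene. TPM3 fell and TPM4 rose in both fractions after CHERP depletion, whereas TPM1 and TPM2 were not called. In these bulk libraries less RNA per cell and fewer cells with that RNA cannot be told apart. Of the 4 genes, 2 were called in each fraction, beside 36.7% of 9660 genes in whole cells and 48.3% of 7293 genes in the cytoplasm.

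TPM3, which encodes a tropomyosin of slow muscle and of many non-muscle cells, had abundances of 38.0 and 42.5 with EGFP siRNA, against 17.1 and 17.4 with CHERP siRNA in whole cells. Every CHERP siRNA value was below every control value. The log2 change was -1.22 (SE 0.10, adjusted p of 3.54e-05), or 2.33-fold lower. In the cytoplasm the values were 52.1 and 50.3 against 22.6 and 22.1, and the log2 change was -1.19 (SE 0.06, adjusted p of 5.21e-08). Genes called lower made up 17.7% of those tested in whole cells and 22.5% in the cytoplasm.

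TPM4, a tropomyosin of non-muscle cells, moved the other way. Its whole-cell abundance was 8.30 and 8.52 with EGFP siRNA, against 12.0 and 12.4 with CHERP siRNA, without overlap. The log2 change was 0.54 (SE 0.11, adjusted p of 0.00392), or 1.45-fold higher. In the cytoplasm it was 1.60 and 1.55 against 2.80 and 2.32, and the log2 change was 0.69 (SE 0.13, adjusted p of 0.000899). The cytoplasmic value rests on a single event, the 134-nt exon chr19:16192723-16192856, with 325 and 321 reads against 640 and 445. Without the second CHERP siRNA library the whole-cell change was 0.52 and no longer called (adjusted p of 0.0627). Genes called higher made up 19% of those tested in whole cells and 25.8% in the cytoplasm.

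TPM1 had 11.3 and 12.3 against 11.0 and 10.0 in whole cells, a log2 change of -0.16 (SE 0.11, adjusted p of 0.293). In the cytoplasm it had 10.2 and 10.4 against 10.4 and 9.00, and the groups overlapped at the first CHERP siRNA library (log2 change of -0.09, adjusted p of 0.400). TPM2 had 25.3 and 24.0 against 21.8 and 21.1 in whole cells, a log2 change of -0.20 (SE 0.10, adjusted p of 0.139). In the cytoplasm it had 16.9 and 17.6 against 16.6 and 15.7 (log2 change of -0.10, adjusted p of 0.245). In both fractions the events summed for TPM2 include the SE events of exons 6a and 6b, so the exon choice is part of these values. Both genes were thus slightly below the control level in value, and no change was called. Without the second EGFP siRNA library TPM2 was called lower in whole cells (log2 change of -0.24, adjusted p of 0.0239). Scaling by the total, under which the median of all cytoplasmic genes was -0.10 on the log2 scale, called both in the cytoplasm (TPM1 -0.21, adjusted p of 0.0475; TPM2 -0.22, adjusted p of 0.0136), and relative to that median they were at -0.10 and -0.11.

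**Figure D4:**
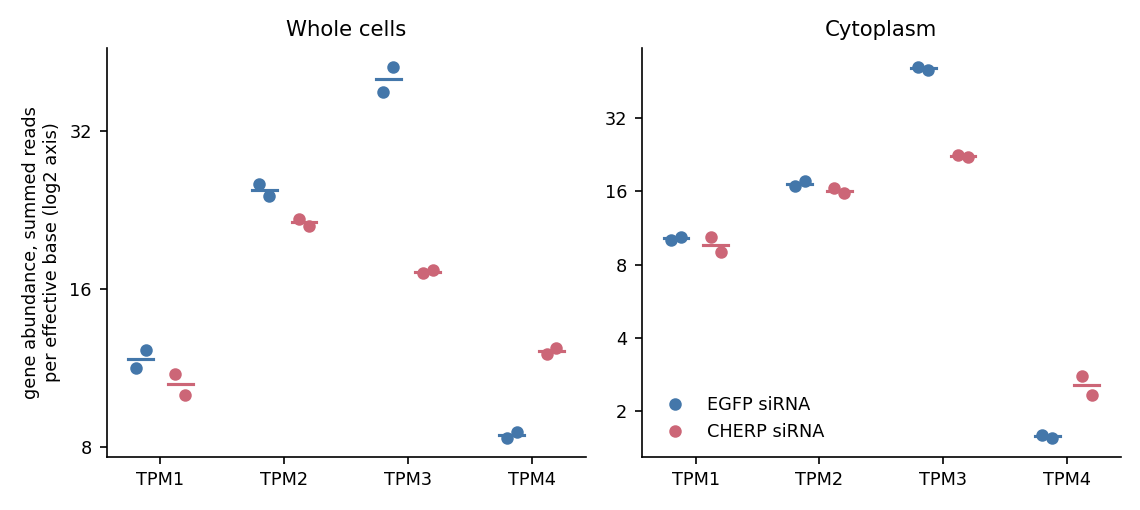
Abundance of the 4 tropomyosin genes, as summed reads per effective base scaled between libraries (y axis, log2), in whole cells (left) and the cytoplasm (right). Points are libraries and bars are means of 2; TPM3 is lower and TPM4 higher in every CHERP siRNA library, and levels of different genes cannot be compared here because the genes have different numbers of events.

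The changes did not differ detectably between the fractions. For the interaction of siRNA and fraction in limma, the cytoplasmic minus the whole-cell log2 change was 0.02 (SE 0.11) for TPM3, 0.15 (SE 0.16) for TPM4, 0.07 (SE 0.14) for TPM1 and 0.11 (SE 0.11) for TPM2. All had an adjusted p of 0.995, and limma called 0 of 7059 genes, of which 348 were at an unadjusted p under 0.05.

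To set the genes in order per length, the SE event with the highest density of each gene was used, in reads per effective base. With EGFP siRNA the order in whole cells was TPM3 at 10.4 ± 0.94, TPM2 at 5.86 ± 0.91, TPM4 at 4.73 ± 0.31 and TPM1 at 4.40 ± 0.55 (SD, n = 2), and the values of TPM4 and TPM1 overlapped. With CHERP siRNA TPM4 came first at 6.92 ± 0.14, followed by TPM2 at 4.70 ± 0.009, TPM3 at 4.50 ± 0.17 and TPM1 at 3.90 ± 0.22. In the cytoplasm the order with EGFP siRNA was TPM3 at 8.69 ± 0.04, TPM2 at 4.94 ± 0.66, TPM1 at 2.86 ± 0.14 and TPM4 at 1.58 ± 0.04. With CHERP siRNA it was TPM2 at 5.59 ± 0.03, TPM3 at 3.38 ± 0.005, TPM4 at 2.56 ± 0.34 and TPM1 at 2.42 ± 0.07, and the values of the last pair overlapped. The TPM2 event of the cytoplasm was the SE event of exon 6b, the exon whose share rose with CHERP siRNA, so its values carry the exon choice as well. By these events TPM3 led in the control cells of both fractions and in neither fraction after CHERP depletion. The events chosen lie at different places of the genes, so that coverage along the transcript is part of these levels. Other whole-cell SE events of TPM4 had 1.99 and 2.00, and 3.22 and 3.34, reads per base on the inclusion form with CHERP siRNA. The order thus depends on the event chosen.

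The expression table of the cytoplasmic libraries holds only genes past the authors' threshold, and among the tropomyosin genes it lists TPM3 and TPM4. The authors' means in its first and second mean column were 6639 and 13464 for TPM3 and 7311 and 4551 for TPM4. Its header does not tie the columns to an siRNA. CHERP itself had means of 209 and 1685 in the same columns. Its reads on cytoplasmic events were 31 and 21 with EGFP siRNA, against 3 and 4 with CHERP siRNA.

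By the pattern over the 8 libraries, with each fraction centred, the genes most like TPM3 were ATAD2, SLBP and DUT, with Pearson correlations of 0.9996, 0.999 and 0.999 among 4418 genes. The genes most like TPM4 were ATG7, BAG1 and FGFR1OP (0.993, 0.991 and 0.991). For TPM2 they were YBX1, RILPL2 and STXBP2 (0.973, 0.966 and 0.962), and for TPM1 they were TOMM7, TMA7 and WLS (0.949, 0.943 and 0.936). These correlations are a description, since the libraries share the siRNA groups and any gene with a clear difference between them scores high.

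Tropomyosins share the actin filament with myosin, crosslinking and severing proteins, and 40 genes of such partners were followed. In whole cells 37 could be tested, of which 14 were called higher and 7 lower, with a median log2 change of 0.15 beside 0.02 over all genes. Over all genes 19% were called higher and 17.7% lower. In the cytoplasm 30 could be tested, of which 11 were higher and 4 lower, with a median of 0.06 beside 0.01. Called genes thus made up 15 of 30, close to the 48.3% over all genes there.

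CNN1, the gene of the filament-binding protein calponin, rose by 2.48 (SE 0.21, adjusted p of 3.24e-05) in whole cells and 2.55 (SE 0.14, adjusted p of 1.56e-07) in the cytoplasm on the log2 scale. FLNC, which encodes a filamin that crosslinks actin, rose by 2.15 and 1.94 (SE 0.25 and 0.09, adjusted p of 0.000189 and 6.79e-08). ACTN1, the crosslinker alpha-actinin, rose by 1.80 and 1.86 (SE 0.10 and 0.07, adjusted p of 5.45e-06 and 1.74e-08). LIMA1, a binder of filament bundles, rose by 1.66 and 1.76 (SE 0.12 and 0.12, adjusted p of 1.23e-05 and 6.87e-07). The myosin light chain genes MYL12A and MYL6 rose by 0.74 and 0.35 in whole cells and by 0.72 and 0.49 in the cytoplasm, with adjusted p between 8.32e-06 and 0.0208. These 6 genes had the lowest adjusted p of the list, and all rose. Other partners were called lower, of which 2 are given here, chosen after their values were seen. CALD1, which encodes the filament-binding protein caldesmon, fell by 0.61 and 1.06 (SE 0.12 and 0.13, adjusted p of 0.00292 and 5.26e-05), and CNN2, another calponin gene, fell by 0.68 and 0.58 (SE 0.13 and 0.07, adjusted p of 0.00361 and 3.98e-05).

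**Figure D5:**
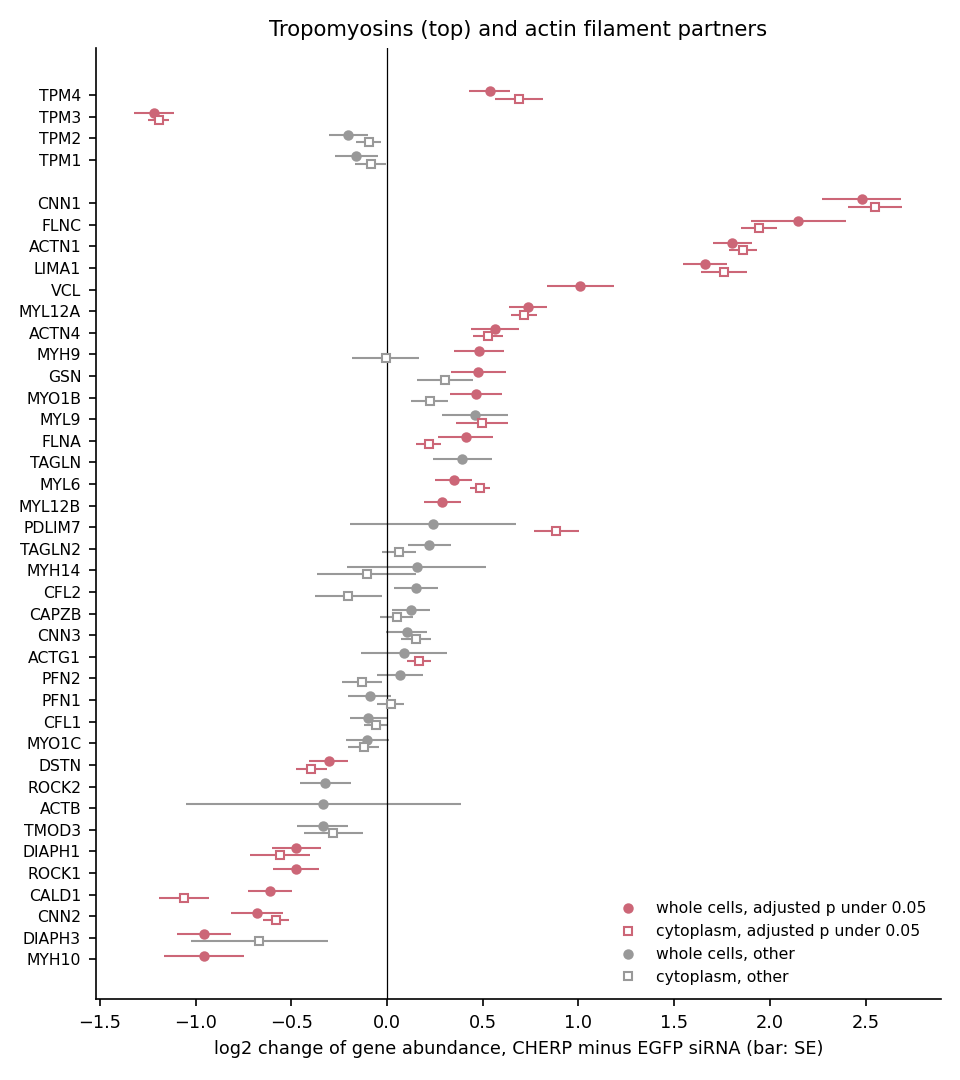
Log2 change of gene abundance, CHERP minus EGFP siRNA (x axis), with its SE, for the 4 tropomyosin genes (top) and the actin filament partners that could be tested, apart from a gene not reported here. Circles are whole cells and squares are the cytoplasm, in red where the adjusted p by limma was under 0.05; CNN1, FLNC, ACTN1 and LIMA1 stand furthest to the right, at 1.66 or above, and TPM3 stands at -1.22 and -1.19.

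Splicing of the partners was called in 13 of 272 whole-cell events, or 4.78%, and 2 of 162 cytoplasmic events, or 1.23%. Over all events the shares were 1.12% and 0.416%. Several of the whole-cell calls were overlapping events of MYL6 alone, so the share does not describe the partners as a set. Of their SE and MXE events, a 24-nt exon of FLNA, which encodes a filamin, at chrX:153585619-153585642, had levels of 0.656 and 0.706 with EGFP siRNA, against 0.837 and 0.851 with CHERP siRNA in whole cells (adjusted p of 3.58e-09). In the cytoplasm the levels were 0.746 and 0.766 against 0.912 and 0.915 (adjusted p of 1.19e-07). In MYL6 the 144-nt SE exon at chr12:56553371-56553514 went from 0.938 and 0.933 to 0.956 and 0.957 in whole cells (adjusted p of 0.000784).

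A list of 32 splicing factors with a known or proposed part in tropomyosin or muscle exons was also read. In whole cells 26 could be tested, of which 4 were called higher and 5 lower, with a median log2 change of -0.15 beside 0.02 over all genes. In the cytoplasm 24 could be tested, of which 5 were higher and 10 lower, with a median of -0.10 beside 0.01. Over all genes 36.7% were called in whole cells, and in the cytoplasm 25.8% were called higher and 22.5% lower. QKI, an RNA-binding protein of muscle splicing, fell by 0.65 in whole cells and 0.81 in the cytoplasm (SE 0.13 and 0.09, adjusted p of 0.00396 and 2.93e-05). MBNL1, a muscleblind factor, fell by 0.74 and 0.65 (SE 0.11 and 0.10, adjusted p of 0.000962 and 0.000274). CELF1, whose family often acts opposite to muscleblind factors, rose by 0.74 and 0.53 (SE 0.10 and 0.08, adjusted p of 0.000566 and 0.000181). The RNA helicase gene DDX5, HNRNPH1 and KHSRP, the latter pair encoding RNA-binding proteins of exon choice, rose by 0.58, 0.46 and 0.53 in whole cells and by 0.53, 0.50 and 0.72 in the cytoplasm, with adjusted p between 7.17e-05 and 0.0110.

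Events of these factors were called in 15 of 424 in whole cells, or 3.54%, and 4 of 194 in the cytoplasm, or 2.06%. Over all events the shares were 1.12% and 0.416%. All 4 cytoplasmic calls were events of SRSF5, and several of the whole-cell calls were overlapping events of HNRNPH1. The shares thus do not describe the factors as a set. Among their SE and MXE events the lowest adjusted p belonged to HNRNPH1, whose 139-nt exon chr5:179046270-179046408 went from 0.765 and 0.724 to 0.886 and 0.890 in whole cells (adjusted p of 1.03e-07). A second form of that exon, chr5:179046270-179046361, went from 0.524 and 0.492 to 0.735 and 0.753 (adjusted p of 2.18e-06). Its MXE event of exons chr5:179048243-179048398 and chr5:179047893-179048036 went from 0.832 and 0.805 to 0.920 and 0.917 (adjusted p of 6.69e-07). In HNRNPF, a related gene, the MXE event of exons chr10:43891904-43892038 and chr10:43890078-43890136 went from 0.312 and 0.381 to 0.523 and 0.505 (adjusted p of 2.63e-06). The part of any of these factors in the TPM2 exon choice was not tested.

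The libraries were of similar depth within a fraction, with 29409956 to 35664568 reads on events in whole cells and 5370756 to 6580099 in the cytoplasm, where a read on several events counts at each. CHERP had 103 and 77 reads on its events in whole cells with EGFP siRNA, against 3 and 10 with CHERP siRNA, and 31 and 21 against 3 and 4 in the cytoplasm. Of the mesenchymal markers, VIM had 57402 to 80880 reads in whole cells and RUNX2 0 to 18, while COL1A1, COL1A2 and SPARC had no event. The epithelial gene CDH1 had 1 to 22 reads in whole cells, and EPCAM, KRT5, PTPRC, DES, MYH2 and ACTA1 had no event in either fraction.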

How the data were processed

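The authors mapped stranded poly(A) RNA-seq reads to hg19 and deposited rMATS tables, whose cells join the inclusion or skipping reads of 2 libraries without normalization. The submitters' processing notes name STAR 2.5.2b and RSEM 1.2.25; the rMATS version is not given in the sources used here. The deposited columns of p-values, FDR and inclusion differences hold the authors' own comparison and were not used, nor were 20 columns of inclusion levels, which were recomputed from reads and lengths. The cytoplasmic expression table gives means per group, fold ratios and posterior probabilities for selected genes; only the means were read. The effective length of the skipping form was 144 bases in whole cells and 73 in the cytoplasm, so levels were tested within a fraction.

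For each event, the inclusion and skipping reads were fitted by a quasi-binomial model, whose Pearson dispersion was moderated by squeezeVar of limma 3.58.1 in R 4.3.3. p-values were adjusted by Benjamini-Hochberg over all events of a type. The moderation gave infinite prior degrees of freedom in all 10 tables, so the own spread of an event had no weight. Abundance was scaled by median ratios and genes averaging 20 reads or more in a library were tested by limma on log2(value + 0.01), which understates changes of low genes. TPM genes are similar in sequence and have processed pseudogenes, and the split of their reads was not tested. Replicates are the biological duplicates of the labels. Events of the same gene share reads. The members and lists were chosen with earlier results of these data known. Events described library by library were those called, those of each gene with the most MXE or SE reads in a fraction, and the event with the largest difference without overlap; other genes named were up to 6 of each list, and up to 4 SE or MXE events, with the lowest adjusted p. Beyond this rule, the exon 2 pair and the intron of TPM1, the pair of adjacent TPM2 exons, the SE event of TPM2 exon 6a, the 79-nt exon of TPM3 and its 134-nt exon in the cytoplasm were chosen after their values were seen. A gene of the partner list is not reported here by name, and the counts of the list include it. Tests were run on simulated data. Alternatives are given below.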

Additional observations from a re-analysis of the deposited data

How the results depend on the processing

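No paired analysis was possible because the libraries in a cell of the tables carry no replicate number; the first and second library of a group share an order only. Of 140 values and counts recomputed under alternatives, 103 were graded the same, and 2 reversed. A difference or log2 change was graded the same if it kept its direction and its side of the threshold. Counts of called events or genes have no direction, and some changed but were graded the same. Cytoplasmic abundance, for example, had 3 genes called with the highest density of 1 SE event, against 2. Whole-cell tropomyosin events called fell from 2 to 1 with the event's own dispersion where higher, with adjustment over the 5 types, and with the dispersion taken from events whose rarer form had 10 reads or more, chosen after seeing the data. limma on log2 odds called 0 of them, and 0 events of either fraction's tables, where 7342 and 3630 were at an unadjusted p under 0.05. Leaving out 1 library gave 0 to 2. Cytoplasmic calls fell from 1 to 0 with own dispersion, with limma on log2 odds and without any 1 library (0 to 0). The exon 6a differences of TPM2, -0.118 and -0.110, do not depend on the test or the dispersion, and their adjusted p by limma on log2 odds was 0.501 and 0.601; leaving out a library gave -0.138 to -0.0974 in whole cells and -0.132 to -0.0874 in the cytoplasm. Over its alternatives the adjusted p ran from 6.85e-06 to 0.501 in whole cells and from 0.000598 to 0.856 in the cytoplasm. With 1 library left in a group, its spread is taken from the other group.

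Of the 4 genes, 2 were called in abundance in each fraction; scaling by the total called 4 in the cytoplasm, where it moved the share of higher genes among all calls from 53.5% to 40.2%. Leaving out 1 library gave 1 to 3 in whole cells and 2 in the cytoplasm. The highest density of 1 SE event, for TPM2 in the cytoplasm that of exon 6b itself, turned the cytoplasmic TPM2 change to 0.17 (adjusted p of 0.155), and leaving out the second CHERP siRNA library turned that of TPM1 to 0.0277 (0.855), with a range of -0.181 to 0.0277 over the libraries. The same single-event density called TPM1 lower in the cytoplasm (-0.26, adjusted p of 0.0420). TPM3 was called lower under every alternative in both fractions, and TPM4 higher under all but 1. The cause of each change was not tested. No interaction of siRNA and fraction was called for a tropomyosin event under any alternative. The number of libraries, 2 in each group, limits how well the spread of any event is known.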
